A study of Mus musculus with 3 samples.

Results

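Immediate-early and stress-response genes were followed in single-cell RNA sequencing of small intestinal cells of the mouse. They are a fixed list of 34 genes, found by symbol among the 32285 genes of the count matrices, and all 34 had a row. The cells came from wild type C57Bl/6 females of 9 to 10 weeks, with no treatment and no transgene named, and the 3 libraries (library 1, 2 and 3) form 1 group. Each library pooled 4 animals. The intestine without its duodenum was freed of epithelium in EDTA and DTT, then digested for 60 min at 37 °C with Liberase TL and DNase I, and live CD45- CD31+ podoplanin+ cells were sorted into 3′ droplet libraries. All comparisons therefore lie between cell classes or between cells of the same 3 libraries, and no sample without warm digestion was analysed here.

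Immediate-early genes are switched on within minutes of a growth factor, stress, wound or cytokine signal, from transcription factors that are already in the cell. Serum response factor with its ternary complex partners, CREB and NF-kB are the best known of these factors, and they act through short sites close to the start of transcription. Many products are themselves transcription factors (AP-1 subunits, EGR and NR4A proteins), and others are brakes that end the signal (MAP kinase phosphatases, RNA decay factors, inhibitors of cytokine and NF-kB signalling). Warm enzymatic dissociation of tissue is a known inducer of these genes.

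The files held 24541 barcodes with 58857545, 69231794 and 74571090 UMIs (unique molecular identifiers, 1 per captured transcript) in libraries 1 to 3. A barcode was kept with 500 genes or more and a mitochondrial share of 15% or less (6359, 6707 and 9468). Lymphatic endothelial-like cells (LEC, at least 1 Prox1 and 5 Lyve1 UMIs) numbered 5646, 4766 and 8138, or 88.8%, 71.1% and 86.0% of the kept cells. Other classes were gated on their own markers among the cells that passed this CD45- CD31+ podoplanin+ sort, and may differ from their kind in the tissue. Blood endothelial-like cells (BEC) numbered 37, 76 and 37, fibroblast-like cells 55, 231 and 131, epithelial-like cells 124, 420 and 107, macrophage-like (myeloid) cells 18, 101 and 73, and T cell-like cells 18, 61 and 39. Mural cell-like (7, 78 and 22) and plasma cell-like cells (4, 33 and 25) were fewer still. Cells that met the gates of 2 classes were dropped (66, 349 and 207), which was the only treatment of doublets. The libraries shared 13 to 30 barcodes pairwise. Their LEC sums differed by more than sampling noise, with a chi-square per degree of freedom of 18.9 to 70.3.

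The gated LEC carried lymphatic markers that the gate did not use. Those 8 markers summed to 13510 to 15973 CPM (UMIs of a gene per 1000000 UMIs) in LEC and to 232 to 474 CPM in BEC, and 7 of the 8 were detected. They summed to 151 to 513 CPM in T cells, 187 to 446 in epithelial cells, 410 to 533 in myeloid cells and 538 to 601 in fibroblasts. Lymphatic RNA in these classes was not subtracted, and its part in their member levels was not tested. Mmrn1 had 0 UMIs in all barcodes of the 3 libraries, which allows at most 0.0208 CPM of counted UMIs in LEC. Mmrn1 is a known lymphatic marker, and why no UMI was assigned to it is not known, so the 0 is not read as absence of its RNA. The 8 blood endothelial markers outside the gate summed to 35.6 to 40.9 CPM in LEC, with Gja5 at 0, against 4800 to 5426 CPM in BEC. RNA of other cells was low in LEC for fibroblast (3.13 to 15.4 CPM), mural, myeloid and T cell markers, and higher for plasma cell markers (187 to 353 CPM). In 3′ counting each captured transcript gives 1 UMI whatever its length, so CPM values need no correction for length. Differences between genes in capture or assignment were not measured, and levels of different genes are compared with that limit.

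Junb with Zfp36 and Fos with Fosb were among the most correlated pairs across single LEC, and their promoters are shown because these genes moved together. Each window runs from 250 bases before to 30 bases after the RefSeq gene start, 5′ to 3′ on the gene's own strand, in GRCm38.p6. Capitals mark letters that match a searched motif. The windows are Fos at chr12:85473640-85473919 on the plus strand, and Fosb at chr7:19310016-19310295, Junb at chr8:84978719-84978998 and Zfp36 at chr7:28379199-28379478 on the minus strand.
Fos: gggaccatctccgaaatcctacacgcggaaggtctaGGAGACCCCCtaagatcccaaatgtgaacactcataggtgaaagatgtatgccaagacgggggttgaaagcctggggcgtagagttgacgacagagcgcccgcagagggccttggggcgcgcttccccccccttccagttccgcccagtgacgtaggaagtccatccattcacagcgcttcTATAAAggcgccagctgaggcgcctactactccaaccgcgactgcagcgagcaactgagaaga
Fosb: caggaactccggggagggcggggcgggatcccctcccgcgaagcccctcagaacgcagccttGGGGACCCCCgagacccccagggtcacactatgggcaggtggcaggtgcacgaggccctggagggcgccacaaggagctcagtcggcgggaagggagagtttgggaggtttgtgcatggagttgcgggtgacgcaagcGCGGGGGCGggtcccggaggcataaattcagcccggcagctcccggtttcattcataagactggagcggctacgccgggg
Junb: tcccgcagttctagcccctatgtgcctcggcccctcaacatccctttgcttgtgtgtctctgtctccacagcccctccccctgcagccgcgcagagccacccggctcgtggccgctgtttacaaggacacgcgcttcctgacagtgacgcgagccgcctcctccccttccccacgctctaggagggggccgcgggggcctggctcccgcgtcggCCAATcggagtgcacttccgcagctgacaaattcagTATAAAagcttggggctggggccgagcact
Zfp36: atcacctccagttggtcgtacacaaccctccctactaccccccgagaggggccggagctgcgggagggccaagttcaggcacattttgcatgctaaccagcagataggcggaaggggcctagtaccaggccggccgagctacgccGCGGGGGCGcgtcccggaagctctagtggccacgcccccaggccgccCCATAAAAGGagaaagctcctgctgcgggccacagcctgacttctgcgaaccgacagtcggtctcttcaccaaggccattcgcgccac
Fos held an NF-kB match at -214 to -205 and TATAAA at -33 to -28, counted from the first base of the RefSeq gene. Fosb held an NF-kB match at -188 to -179 and an EGR match at -50 to -42, and Zfp36 held an EGR match at -105 to -97 and a CArG box, the site of serum response factor, at -58 to -49. Junb held CCAAT at -36 to -32 and TATAAA at 1 to 6. In the GENCODE annotation the gene starts at the same base for Fos, 30 bases further downstream for Junb, 6 bases upstream for Fosb and 1025 bases upstream for Zfp36, so positions depend on the start used.

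Promoter windows were in the RefSeq table for 28 of the 34 members. Those without were Egr1, Egr3, Ier2, Nfkbiz, Myc and Cebpd. Both strands of 250 bases before to 50 after the start were searched, in the members and in all 27025 genes of the table, each motif counted apart even where it overlapped another. An NF-kB motif was in 8 of 28 members (28.6%) and 5.14% of all genes. The EGR motif (GCGGGGGCG or its form with T at the fourth base) was in 7 members (25%) and 3.93% of all. A CRE (TGACGTCA), the site of CREB, was in 4 members (Dusp1, Btg2, Maff and Plk2, 14.3%) and 2.03% of all. The CArG box was in 3 members (Egr2, Dusp5 and Zfp36, 10.7%) and 1.81% of all. The AP-1 motif TGANTCA was in 2 members (Zfp36l1 and Csrnp1, 7.14%) and 8.97% of all. TATAAA was in 7 members (25%) against 15.7%, and CCAAT in 13 (46.4%) against 41.1%. A match describes letters in the window only, and binding was not measured. Sites outside the window were not searched, so a gene without a match here may hold one further away.

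AP-1 and EGR transcription factors led the list in LEC. Fos (chr12:85473890-85477273, plus strand, in a GENCODE annotation of GRCm38) stood at 6022, 4461 and 5596 CPM in libraries 1, 2 and 3 (5360 ± 807, SD, n = 3). Egr1, a zinc finger factor, followed with 4922, 3389 and 4654 CPM. Jun was at 3770, 2704 and 3533 CPM, Junb at 3376, 2785 and 3537 CPM. In each of these 4 genes library 2 was the lowest. Zfp36 (tristetraprolin), which binds AU-rich elements and speeds the decay of mRNA, was at 2901, 2174 and 2407 CPM. Fosb was at 3054, 1844 and 2387 CPM and Jund at 2660, 2110 and 2402 CPM. Nfkbia, the inhibitor IkB-alpha, was the exception among the 8 highest members: it stood at 1939, 2127 and 2273 CPM, with library 1 lowest. These 8 genes made up 66.1% of the summed level of the 34.

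Of the 34 members, 11 were above 1000 CPM in LEC, 18 lay between 100 and 1000 and 5 were below 100. The 3 others above 1000 were Dusp1, a phosphatase of MAP kinases (1944 ± 361 CPM), Atf3, a stress-induced bZIP factor (1871 ± 247), and Btg2, an antiproliferative gene (1237 ± 232). At the low end stood Nr4a2, an orphan nuclear receptor (69.4 ± 16.1 CPM), Egr3 (32.3 ± 12.4), Egr4 (24.2 ± 7.34), Myc (23.0 ± 2.29) and Egr2 (12 ± 3.04). Egr2 was the only member below 20 CPM. Library 2 had the lowest value of 29 of the 34 members, while library 1 was highest for 20 and library 3 for 13. Cebpd and Socs3 were nearly level across libraries (566 ± 31.4 and 513 ± 14.4 CPM). The libraries carry 1 label, so their differences have no test.

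**Figure D1:**
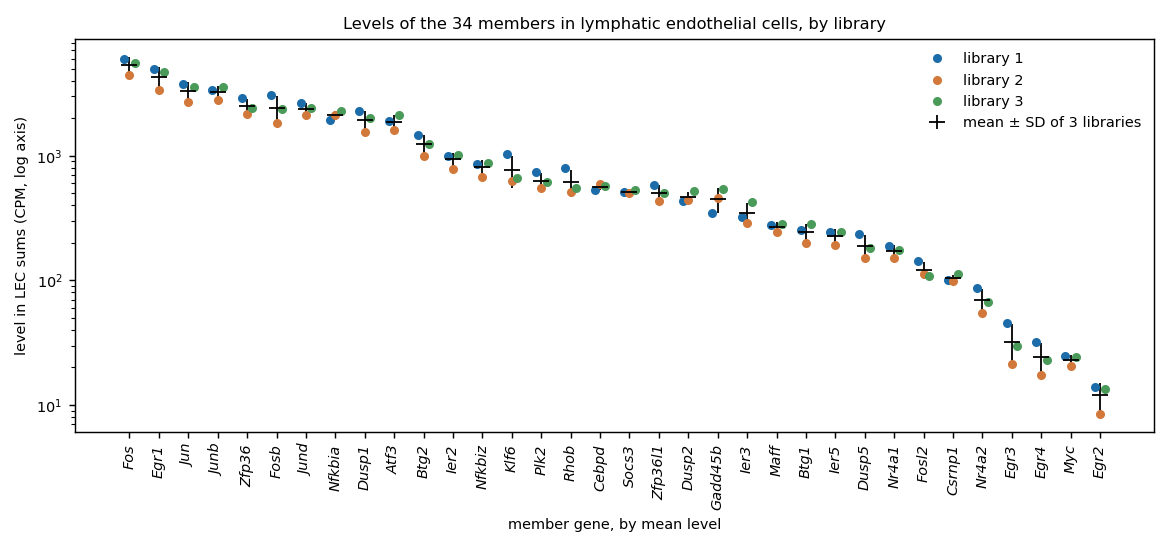
Level of each of the 34 members in the summed LEC of each library (vertical log axis, CPM); coloured points are libraries, the black bar is the mean and its whisker the SD over 3 libraries. Levels span from 5360 CPM (Fos) to 12 CPM (Egr2), and library 2 lies lowest for 29 genes.

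Summed over the list, members took 3.88% ± 0.53 of all UMIs in LEC, 3.54% ± 0.34 in BEC, 2.62% ± 0.27 in fibroblasts and 1.99% ± 0.52 in myeloid cells (SD, n = 3). The share was 1.11% ± 0.59 in mural cells, 1.05% ± 0.24 in T cells, 0.891% ± 0.056 in epithelial cells and 0.386% ± 0.105 in plasma cells. Endothelium thus held the top of the order, and LEC and BEC differed by less than the spread between libraries (43067, 32893 and 40501 summed CPM against 39006, 35001 and 32158). LEC had the highest mean of 14 members, BEC of 13, T cells of 4 (Dusp5, Nr4a2, Btg1 and Myc) and fibroblasts of 3 (Egr2, Zfp36l1 and Gadd45b). Fos, Fosb, Dusp1, Dusp2, Rhob and Maff were higher in LEC than in any other class with no overlap between the library values of the first and the next class. For Fos that order was LEC, fibroblasts, BEC, myeloid, mural, epithelial, T and plasma cells, and the ranges of fibroblasts and BEC overlapped, as did those of myeloid, mural and epithelial cells in turn and of T and plasma cells. Egr3, Ier3, Fosl2, Socs3 and Csrnp1 were highest in BEC with no overlap, and Btg1 and Dusp5 in T cells. Class order and overlap were not taken over all genes. These counts therefore have no background and do not set the members apart from other genes. Median UMIs per cell and mitochondrial shares differed between the classes: 6770 to 8131 UMIs and 1.71% to 1.93% in LEC, 4734 to 6599 and 2.18% to 2.75% in BEC, and 25265 to 30242 and 6.51% to 8.34% in epithelial cells. The part of depth and mitochondrial share in the member levels was not tested. In plasma cells 5 plasma cell markers outside the gate, Igha and Igkc among them, summed to 446733 to 585021 CPM. The CPM of all other genes in plasma cells is lowered by that share, and their place in the orders above holds only per all UMIs.

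**Figure D2:**
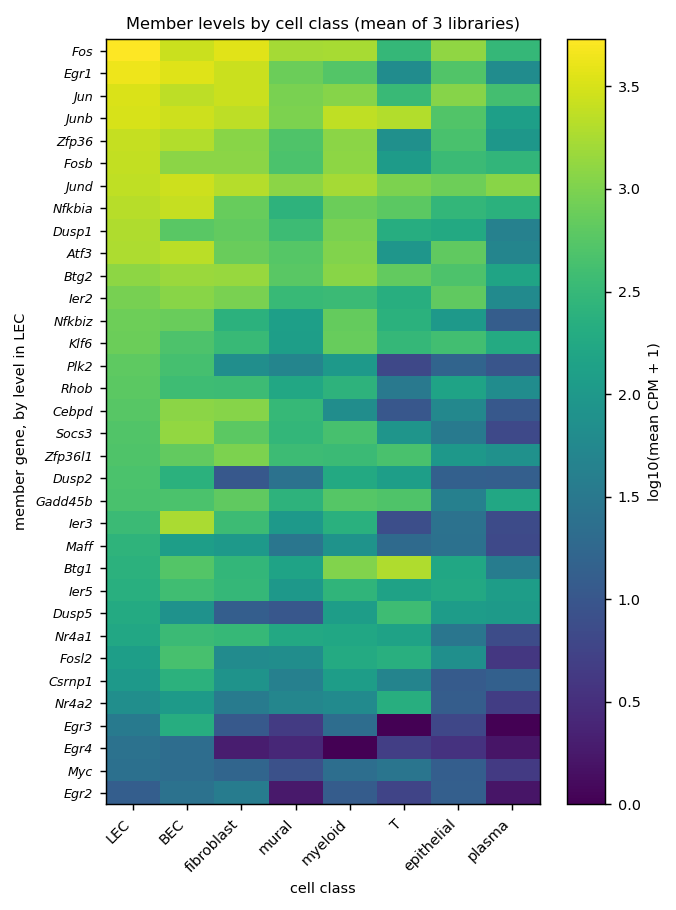
Heat map of log10(mean CPM + 1) over 3 libraries, with the 34 members in rows by their level in LEC and the 8 classes in columns. LEC, BEC and fibroblasts are bright for Fos, Egr1, Jun and Junb, and T cells stand out for Btg1. Plasma cells are dark in most rows, but 5 plasma cell markers take 446733 to 585021 CPM there.

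Class sums of each library were compared with edgeR's quasi-likelihood test, and p-values were adjusted by Benjamini-Hochberg over all genes tested. The comparisons share the LEC sums and are not independent of each other. P-values reach no further than these 3 libraries, for which the labels do not say whether animals were shared. All 34 members passed the filter on low counts in each comparison. All fold changes below are fitted log2 values with their standard error.

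Between the lymphatic and the blood endothelium the members split in both directions. Of 34 members 22 passed at 0.05, with 10 higher and 12 lower in LEC, against 25.9% of the 12778 genes tested (13.2% higher and 12.7% lower). Dusp1 was at 2267, 1555 and 2010 CPM in LEC and at 829, 521 and 443 CPM in BEC, with no overlap (log2 fold change 1.68 ± 0.15, adjusted p = 2.18e-26). Dusp5, a phosphatase of nuclear ERK, was at 236, 152 and 181 CPM against 136, 39.6 and 57.8 CPM (1.40 ± 0.20, adjusted p = 6.73e-11). Maff, a small MAF factor, was at 278, 244 and 286 CPM against 136, 111 and 120 CPM (1.09 ± 0.18, adjusted p = 1.71e-08). All 3 were higher in LEC in every library. Fosb (1.01), Fos (0.94), Dusp2 (0.90), Rhob (0.67), Klf6 (0.61), Plk2 (0.60) and Jun (0.50) were the others higher in LEC.

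Egr3 fell on the other side: 45.7, 21.4 and 29.7 CPM in LEC against 355, 174 and 106 CPM in BEC (log2 fold change -2.77 ± 0.18, adjusted p = 2.64e-49). Ier3, an early response gene that acts on cell survival, was at 324, 290 and 425 CPM against 1706, 1937 and 1786 CPM (-2.44 ± 0.15, adjusted p = 5.04e-57). Fosl2, an AP-1 subunit, was at 142, 112 and 108 CPM against 483, 379 and 438 CPM (-1.88 ± 0.16, adjusted p = 1.34e-31). The values of the 2 classes did not overlap in these 3 genes. Socs3, the inhibitor of cytokine signalling through STAT3 (-1.40), Csrnp1 (-1.25), Egr2 (-1.24), Btg1 (-1.21), Cebpd (-1.08), Nr4a1 (-1.0), Ier5 (-0.81), Nr4a2 (-0.55) and Zfp36l1 (-0.47) were the others lower in LEC. Egr1 (0.28 ± 0.14), Junb (0.20 ± 0.14), Jund (-0.24 ± 0.14) and Zfp36 (0.28 ± 0.14) did not pass the threshold. The members' median was -0.22, against 0.15 over all genes tested. Without library 1, 2 or 3 it was -0.18, 0.03 and -0.36, against 0.16, 0.24 and 0.14 over all genes, so its sign changed without library 2. Jun, Rhob, Klf6 and Zfp36l1 did not pass without library 3, nor Plk2, Ier5 and Zfp36l1 without library 2, and the calls of Nr4a2 and Egr2 were lost in several of the settings tried.

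Among 55 further genes of the same signalling route (kinases, factors, phosphatases and targets, none of them members), 33 passed, 5 higher and 28 lower in LEC, with a median of -0.46. Gadd45a had the largest fold on the LEC side (2.06 ± 0.30) and Hbegf, an EGF receptor ligand, on the BEC side (-4.66 ± 0.30). Klf2 was at 1901, 965 and 1334 CPM in LEC and 3084, 2701 and 2123 CPM in BEC. Of 15 heat shock chaperones 10 passed, 6 higher and 4 lower, led by Hsph1 (2.32 ± 0.23) and Hspb1 (-0.73 ± 0.15).

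Fibroblasts were lower than LEC for most of the members that differed. Here 26 members passed, 20 higher and 6 lower in LEC, against 53.8% of 13794 genes (28.3% higher and 25.5% lower). Dusp2 stood at 437, 438 and 522 CPM in LEC and at 9.87, 9.32 and 9.79 CPM in fibroblasts (5.65 ± 0.13, adjusted p = 1.84e-13). Egr4 counted 3 UMIs in all fibroblasts, and the ratio of the summed levels was 31.9 (10.9 to 155, exact 95% interval for counting error only). Dusp5 was at 14.8, 12.6 and 8.90 CPM in fibroblasts, far below LEC in each library (3.94 ± 0.15, adjusted p = 3.84e-11). Lower in LEC were Egr2 (-1.53 ± 0.20), Cebpd, a bZIP factor of the acute phase (-0.93 ± 0.11), and Zfp36l1, a relative of Zfp36 (-0.90 ± 0.11). Without library 1 the members lower in LEC were 10 in place of 6, where 26.7% of all genes were lower. The members' median was 0.68 against 0.06 over all genes. Of the signalling genes 39 of 55 passed, 25 higher and 14 lower, led by Dusp4 (3.0 ± 0.51) and Areg (-3.52 ± 0.55). Of the chaperones 11 of 15 passed, 5 higher and 6 lower, led by Hspb1 (2.79 ± 0.13) and Hspb8 (-2.05 ± 0.21).

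Epithelial cells were low for nearly the whole list. In edgeR's test 31 of 34 members passed, each of them higher in LEC and 0 lower, against 79.1% of 14166 genes (43.5% higher and 35.6% lower). At an unadjusted p under 0.05 the members were also 31, and DESeq2 called 31 higher and 0 lower. Plk2, a stress-induced kinase, was at 734, 548 and 612 CPM in LEC and 13.4, 14.5 and 16.5 CPM in epithelial cells (5.24 ± 0.18, adjusted p = 3.46e-07). Dusp2 was at 4.60, 12 and 21.8 CPM in epithelial cells (5.15 ± 0.34) and Socs3 at 24.5, 37.2 and 40.2 CPM (3.77 ± 0.18), so LEC lay above in every library. Fos itself was at 1289, 1250 and 1315 CPM there, the highest member of that class. The members' median was 2.31 against 0.21 over all genes. Among signalling genes 48 of 56 passed, 34 higher and 14 lower, led by Spry4 (6.28 ± 0.31) and Areg (-7.83 ± 0.47), and among chaperones 11 of 15, 9 higher and 2 lower, led by Hspb1 (4.90 ± 0.18) and Hspd1 (-2.29 ± 0.12).

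Against myeloid cells 19 members passed, 17 higher and 2 lower in LEC, where 43.2% of 13122 genes did (26.1% higher and 17.1% lower). Egr4 had 0 UMIs in myeloid cells, which makes it at least 14.4-fold higher in LEC against a floor of 3 UMIs over the class. Egr1 was at 208, 395 and 1021 CPM in myeloid cells, below LEC in each library (3.11 ± 0.25, adjusted p = 9.78e-15), and its value was 2.40 without library 1 and 3.72 without library 3. Cebpd was at 12.6, 60.9 and 122 CPM (2.99 ± 0.28), or 3.73 without library 3. Btg1, an antiproliferative gene of quiescent cells, was at 252, 200 and 281 CPM in LEC and 661, 1120 and 1338 CPM in myeloid cells (-2.13 ± 0.22, adjusted p = 2.13e-11). Fosl2 (-0.78 ± 0.22) was called lower as well, but not without library 2 or 3. Without library 1, which held 18 of the myeloid cells, 8 members were lower in place of 2, where 21% of all genes were lower. Plasma cell markers outside the gate summed to 208 to 7554 CPM in myeloid cells, depending on the library, against 187 to 353 CPM in LEC. The part of plasma cell RNA in the myeloid values was not tested. The members' median was 0.61, and the median over all genes was 0.34 with TMM factors and 0.23 with RLE factors. In the signalling list 36 of 55 passed (24 higher, 12 lower; Ccn1 4.87 ± 0.30, Id2 -3.76 ± 0.29), and 11 of 15 chaperones (8 higher, 3 lower; Hspb1 3.97 ± 0.31, Hspa5 -0.72 ± 0.17).

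T cells were lower than LEC for most members. Of the members 30 passed, 26 higher and 4 lower in LEC, against 39.1% of 12830 genes (25.8% higher and 13.3% lower). Egr1 was at 69.6, 46.9 and 74.5 CPM in T cells, against more than 3000 CPM in LEC (6.26 ± 0.20, adjusted p = 8.64e-213). Lymphatic markers outside the gate summed to 151 to 513 CPM in these T cells. The part of lymphatic RNA in low T cell values such as that of Egr1 was not tested. Plk2 counted 4 UMIs in all T cells (6.78 ± 0.37, and 8.15 without library 3), and Egr3 counted 0, which makes it at least 7.22-fold higher in LEC. Junb was at 2205, 1349 and 2429 CPM in T cells, the highest member there, and 0.93 ± 0.14 higher in LEC on the log2 scale. Btg1 ran the other way, with 2089, 1704 and 1907 CPM in T cells (-2.77 ± 0.17, adjusted p = 4.88e-57), followed by Nr4a2 (-1.37 ± 0.24) and Dusp5 (-0.80 ± 0.21). Dusp5 and Fosl2 were not called with DESeq2, nor without library 2 or library 3, and the members lower in LEC were then 2 in place of 4, beside 7.63% to 8.64% of all genes. The members' median was 2.16 against 0.50 over all genes. The signalling list had 33 of 55 genes past the threshold (22 higher, 11 lower; Spry4 with 0 UMIs in T cells, Areg -7.16 ± 0.38), and 14 of 15 chaperones (11 higher, 3 lower; Hspb8 with 0 UMIs in T cells, Hspd1 -0.86 ± 0.24).

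Mural and plasma cells were too few in library 1 for the test, and libraries 2 and 3 alone were fitted. Each comparison called 29 members. All 29 were higher in LEC than in mural cells, against 42.5% of 13363 genes called (23.9% higher and 18.7% lower), and 31 members had an unadjusted p under 0.05. Against plasma cells 28 were higher and 1 lower, where 37.1% of 12978 genes were called (22.4% higher and 14.7% lower). With 2 libraries the spread rests largely on the trend over genes.

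Within the lymphatic population the members differed between 2 sets of cells that genes outside the list define. LEC were thinned to 3000 UMIs each, and cells with Itih5 and no Clca3a1 UMI (1689, 1059 and 2235 cells) were set against those with Clca3a1 and no Itih5 UMI (685, 744 and 886). Of the members 23 passed, 18 higher in Itih5+ and 5 higher in Clca3a1+ cells, against 21.2% of 10361 genes (10.8% higher and 10.4% lower). Without the library as a block 10 members (6 and 4) and 10.1% of all genes passed, and DESeq2 called 16 members (12 and 4) and 4.35% of 17570 genes. The fitted differences were below 2-fold, but reached log2 values of 1.36 for Egr4, 1.14 for Nr4a1 and 1.11 for Dusp5 under other settings.

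Dusp5 was at 264, 181 and 184 CPM in Itih5+ LEC and 101, 98.1 and 108 CPM in Clca3a1+ LEC (0.97 ± 0.07, adjusted p = 7.26e-39). Nr4a1, the orphan nuclear receptor NUR77, was at 206, 154 and 167 CPM against 80.3, 77.5 and 110 CPM (0.91 ± 0.08, adjusted p = 2.89e-31). Egr4 was at 35.9, 24.9 and 26.5 CPM against 20.4, 8.96 and 15.4 CPM (0.90 ± 0.16, adjusted p = 1.74e-07). In these 3 genes the 2 sets of values did not overlap. Egr2, Egr3, Nr4a2, Plk2, Klf6 and Egr1 followed with 0.85, 0.71, 0.65, 0.52, 0.40 and 0.35.

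On the Clca3a1+ side stood Dusp2, at 390, 313 and 369 CPM in Itih5+ and 518, 521 and 601 CPM in Clca3a1+ LEC (-0.66 ± 0.05, adjusted p = 1.66e-32). Cebpd was at 452, 489 and 451 CPM against 657, 737 and 717 CPM (-0.65 ± 0.05, adjusted p = 9.74e-34), and Ier3 at 291, 232 and 321 CPM against 398, 345 and 516 CPM (-0.62 ± 0.06, adjusted p = 2.14e-26). Socs3 (-0.48) and Gadd45b (-0.44) were the other members called on that side. Gadd45b was at 326, 386 and 398 CPM in Itih5+ and 320, 485 and 680 CPM in Clca3a1+ LEC, so library 1 did not show this difference. Gadd45b and Egr3 were not called with DESeq2 or without the block, and Egr2 neither with DESeq2 nor without library 3. Klf6 and Egr1 were not called without the block. Fos did not pass, at 5733, 4048 and 4647 CPM against 5274, 3996 and 5202 CPM (-0.05 ± 0.05, adjusted p = 0.482), and Junb did not either (-0.04 ± 0.05, adjusted p = 0.627). The 2 phosphatases Dusp5 and Dusp2 thus lay on opposite sides. Dusp5 was also the second largest of the members higher in LEC than in BEC, and Dusp2 was higher in LEC there too. Signalling genes passed in 21 of 53 cases, 16 higher and 5 lower in Itih5+ LEC, led by Spry4 (1.53 ± 0.13) and Gadd45g (-0.95 ± 0.08). Of the chaperones 5 of 15 passed, led by Hspa5 (0.44 ± 0.05) and Dnajb1 (-0.25 ± 0.06).

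**Figure D3:**
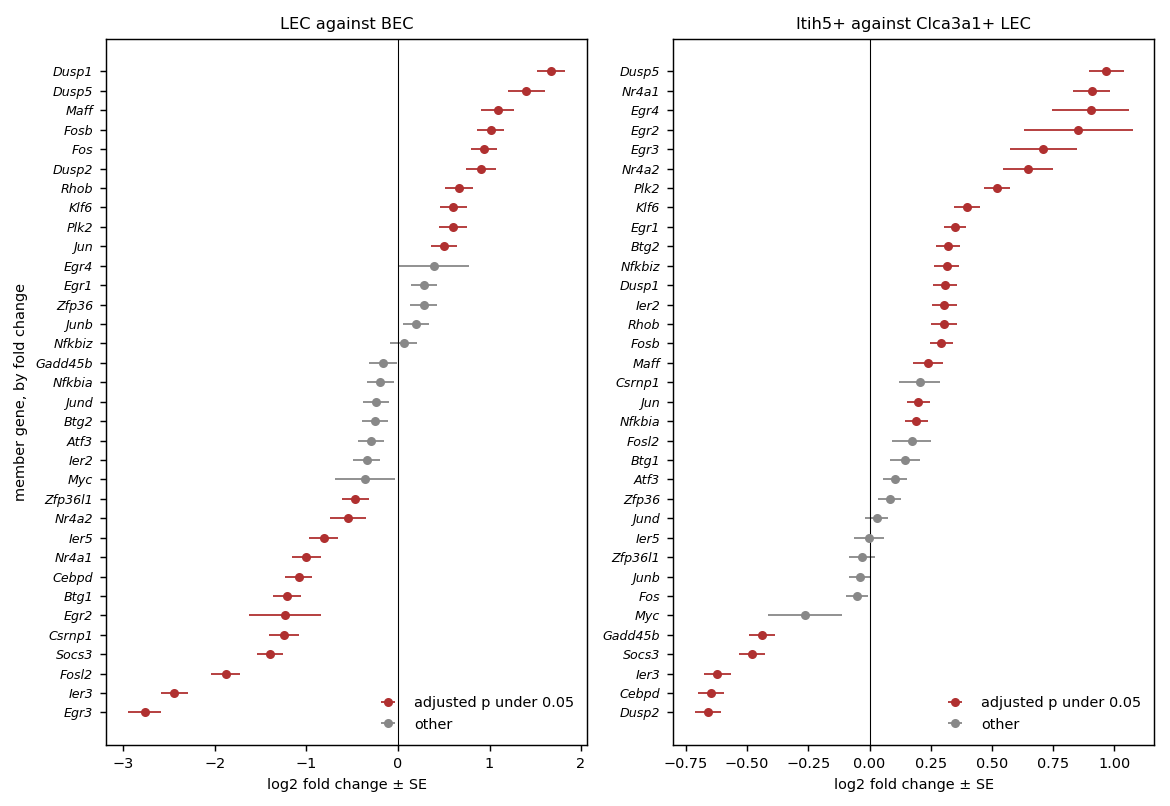
Log2 fold change ± SE of the 34 members, LEC against BEC (left) and Itih5+ against Clca3a1+ LEC (right), each ordered by fold change; red points have an adjusted p under 0.05 in edgeR. Dusp1 (1.68) and Egr3 (-2.77) are the ends on the left, Dusp5 (0.97) and Dusp2 (-0.66) on the right, where the axis is shorter.

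Across single LEC the members moved together. Correlations were taken over LEC with at least 3000 UMIs (5488, 4639 and 7963 cells), on residuals that remove each cell's total, in each library apart, and averaged; they describe cells that share library, droplet and ambient RNA and carry no p. For 33 members (all but Egr2) the median r over 528 pairs was 0.228, and 0.214, 0.246 and 0.229 in libraries 1, 2 and 3. Over all 19198306 pairs of 6197 genes the median was 0.00186 and the 99th percentile 0.0657. An r of at least 0.1 was found in 84.1% of member pairs and in 0.344% of all pairs. All pairs were not matched to the members on level, and the part of the members' levels in this contrast was not tested. Pairs of members ranked alike in the 3 libraries, with correlations of 0.962 to 0.976 between libraries over the 528 values.

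The 6 highest pairs were Junb with Zfp36 (0.748, 0.765 and 0.761 in libraries 1 to 3), Egr1 with Nfkbiz (mean 0.749), Junb with Egr1 (0.743), Fos with Fosb (0.721), Egr1 with Zfp36 (0.709) and Fosb with Egr1 (0.701). They join AP-1 and EGR factors with a decay factor (Zfp36) and the nuclear IkB protein Nfkbiz. The lowest pairs all held Cebpd: with Nr4a1 (-0.042), Egr3 (-0.012) and Egr4 (-0.003), and the last 2 were positive in library 2. Cebpd was highest with Socs3 (0.419). Only Cebpd (3 of 32 partners), Nr4a1, Egr3 and Egr4 (1 each) had a negative mean r with another member. Median r with the others was highest for Egr1 (0.402), Junb (0.400) and Zfp36 (0.380), and lowest for Egr4 (0.076) and Myc (0.080), which are also among the least abundant members; the part of their sparse counts was not tested.

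Socs3, Cebpd, Ier3, Dusp2 and Gadd45b, the 5 members called higher in Clca3a1+ LEC, had a median r of 0.296 among themselves (10 pairs). The 17 members of the correlation that were higher in Itih5+ LEC had 0.294 (136 pairs), and pairs with 1 of each had 0.150 (85 pairs, from -0.042 to 0.378). These groups were formed on the same cells, so the values are a description.

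**Figure D4:**
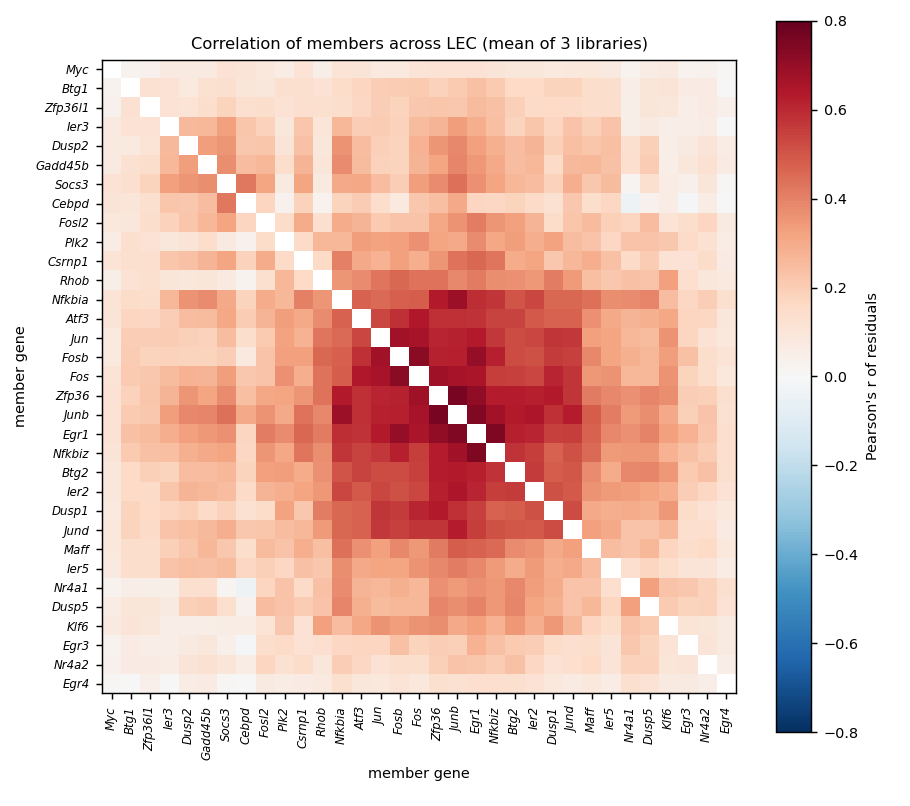
Pearson's r of depth-corrected residuals between 33 members across LEC, mean of 3 libraries; both axes list the members in the same clustered order, and the diagonal is blank. A dark block around Fos, Fosb, Jun, Junb, Zfp36, Egr1 and Nfkbiz reaches 0.758, a small block joins Cebpd and Socs3 (0.419), and Egr4 and Myc are pale.

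Genes outside the list followed the same cells. Of 6164 other genes with at least 20 CPM, those most correlated with the summed members included Ppp1r15a, which restarts translation after stress (0.694), the adhesion molecule Icam1 (0.681), Apold1 (0.640), Ccnl1 (0.595), Kdm6b (0.590), Klf4 (0.586), Ifrd1 (0.585), the chaperone Hspa5 (0.569) and Atf4 (0.566). The median of all other genes was -0.044, and 319 of the 6164 reached an r of 0.1. In the signalling list 24 of 47 genes reached 0.1 and in the chaperone list 8 of 14, and the summed chaperones had r = 0.359, 0.493 and 0.482 with the summed members. The most negative were Itgb1 (-0.310), Ctsd (-0.299), Tmsb4x (-0.297), Cyb5r3 (-0.292) and Ly6e (-0.292).

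LEC ranged from cells with no Fos to cells full of it. In cells thinned to 3000 UMIs, Fos was seen in 88.0% (exact 95% interval 87.2 to 88.9), 78.9% (77.7 to 80.1) and 83.2% (82.4 to 84.0) of LEC in libraries 1 to 3. Unthinned the shares were 91.0%, 82.8% and 86.3%, with median depths of 8131, 7089 and 6770 UMIs. Fos UMIs were also in 52.9%, 34% and 47.2% of the thinned T cells (17, 53 and 36 cells, median 4474 to 4767 UMIs), and Egr1 UMIs in 23.5%, 5.66% and 16.7% of them, against 85.5%, 73.3% and 80.1% of LEC. No class here is known to lack Fos, so the T cells are no measure of ambient RNA alone. At least 20 of the 3000 UMIs were Fos in 42.3%, 28.2% and 38.5% of LEC. The Fano factor (variance over mean of thinned UMIs) had a median of 3.22 over 33 members and 1.05 over 6187 genes. Fos ranked ninth of all genes by this measure, which grows with a gene's level, and 898 by squared variation in excess of counting noise, where Egr4 led the members at 9. The median of that second measure was 1.04 over members and 0.262 over all genes.

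LEC were then ranked by the Fos share of their UMIs in each library and cut into 4 parts of equal cell number, and the uppermost (Fos-high) was set against the lowest (Fos-low). Fos itself fixed the ranking (564, 65.6 and 190 CPM in Fos-low and 11527, 10342 and 11963 CPM in Fos-high LEC) and is not counted. All 32 other members with at least 20 CPM were at least 1.5-fold higher in Fos-high LEC in each of the 3 libraries, which 4.24% of 6196 genes were. Their median fold was 8.0, and it was 5.10, 11 and 8.65 in libraries 1, 2 and 3. Cells are not replicates and the parts cut a continuous range, so no test was made.

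Egr4 had the largest fold, 35.0, from 0.749, 0.899 and 1.85 CPM to 47.7, 29.5 and 45.2 CPM. Few Egr4 UMIs lie behind its Fos-low values, so the size of this fold is uncertain. Across single LEC the r of Egr4 with Fos was 0.082, the lowest of the members. Atf3 was 24.9-fold higher, from 251, 67.8 and 121 CPM to 3396, 3424 and 4159 CPM. Fosb was 21.6-fold higher, from 439, 75.0 and 145 CPM to 5274, 4064 and 4882 CPM. For Atf3 and Fosb the libraries differed by a larger factor in Fos-low than in Fos-high LEC. At the other end were Zfp36l1 (1.76-fold, from 422, 308 and 326 CPM to 684, 536 and 638 CPM), Btg1 (2.32-fold) and Cebpd (2.72-fold). Myc, Rhob and Klf6 lay just above them with 3.37, 3.19 and 3.09. Zfp36l1 and Zfp36 (13.7-fold), paralogs with the same binding motif, thus stood far apart, as did Btg1 and Btg2 (8.0-fold).

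In the signalling list 22 of 47 genes passed the same limit, with a median of 1.57, led by Nr4a3 (12.3), Tnfaip3 (10.9) and Ppp1r15a (9.86). Of 14 chaperones 6 did, with a median of 1.92, led by Hspa5 (5.83), Dnajb1 (5.2) and Hspb1 (4.13). Other features moved with the ranking. Median UMIs were 7389, 6449 and 6058 in Fos-low and 8560, 7543 and 7054 in Fos-high LEC, mitochondrial UMIs 2.23%, 2.06% and 2.10% against 1.75%, 1.62% and 1.63%, and Malat1 16029, 10240 and 11182 CPM against 14559, 8154 and 8872 CPM. Neat1, another nuclear RNA, went the other way, with 379, 244 and 249 CPM in Fos-low and 904, 495 and 651 CPM in Fos-high LEC. Blood endothelial markers, all 10 with the gate genes that LEC share, summed to 645 to 667 CPM in Fos-low and 538 to 591 CPM in Fos-high LEC. Epithelial markers were 25.8, 116 and 81.0 against 27.2, 100.1 and 40.3 CPM. Fibroblast markers ranged from 3.75 to 19.9 against 3.24 to 20.8 CPM, mural markers from 8.90 to 37.2 against 10.5 to 37 CPM and myeloid markers from 3.93 to 21.7 against 7.21 to 22.3 CPM. T cell markers (0.468 to 2.95 against 0.243 to 1.19 CPM) and plasma cell markers (198 to 401 against 180 to 347 CPM) were lower in Fos-high LEC of each library. With LEC thinned to 3000 UMIs the members' median fold was 7.58, and the part of the other features was not tested.

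**Figure D5:**
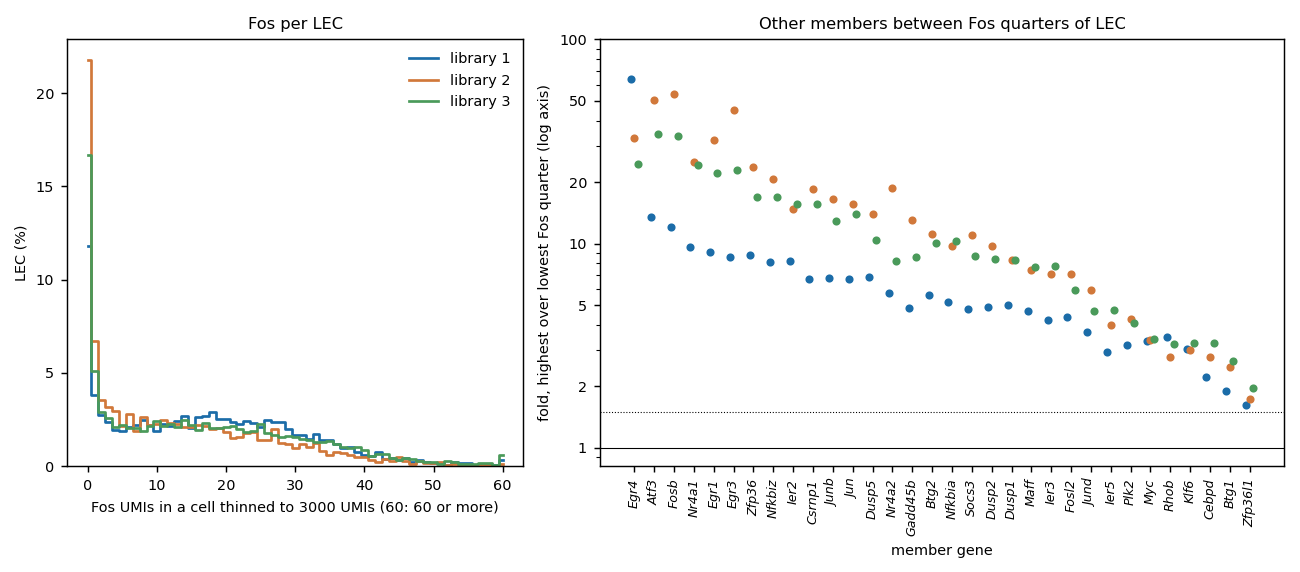
Left, share of LEC (%) by Fos UMIs in cells thinned to 3000 UMIs, 1 line per library, with 60 or more in the last bin. Right, fold of 32 members between Fos-high and Fos-low LEC in each library (log axis, dotted line 1.5-fold). Egr4 (few UMIs in Fos-low LEC), Atf3 and Fosb lead with folds of the library means of 35.0, 24.9 and 21.6. Zfp36l1 is last with 1.76.

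Egr4 was the member held by the fewest cells. The 1% of LEC with most Egr4 held 65.7% ± 12.4 of its UMIs, against 33.2% for Egr2 and 23.2% for Myc. It had no UMI in 94.8%, 97.2% and 96.5% of LEC, and at least 5 UMIs in 117, 43 and 100 cells. Of these, 85.5%, 86.0% and 88.0% lay at or above the median Fos share. All of the Egr4 cells, also those below it, were set against the other LEC at or above it (2644, 2283 and 3894 cells). This comparison was added after the concentration was seen. Its groups are not matched on Fos share, and the part of that in the values below was not tested. Only 2 of 32 members were at least 1.5-fold higher in all 3 libraries, where 0.161% of 6196 genes were: Nr4a1 (470, 469 and 485 CPM against 264, 230 and 260) and Dusp5 (562, 396 and 418 CPM against 311, 218 and 240). Egr3 was higher by 1.79-fold on average but by 1.27-fold in library 3. Cebpd (0.749), Ier3 (0.723) and Socs3 (0.703) were below the other cells in each library, and Fos was at 0.904. The 8 further genes past the limit were Hilpda, Nr4a3, Spry4, Ccl2, Rel, Cxcl2, Tgif1 and Noct. The Egr4 cells had more UMIs, with medians of 10369, 8608 and 8483 against 8552, 7508 and 7120, and a minimum of 5 UMIs favours deep cells; the part of depth was not tested.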

How the data were processed

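UMI counts of 3 libraries were used as deposited. Per the labels' protocols the libraries are Chromium 3′ v3. The submitters' processing notes name bcl2fastq 2.2, Cell Ranger 6.1.2 and mm10. The deposited values are whole-number counts, not normalized. Members, lists, gates and tests were chosen with earlier results of these data known.

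Cells were gated on raw UMIs, with Lyve1 under 0.1% of UMIs for classes other than LEC. Counts were summed per library and class, with at least 20 cells in each sum. A minimum of 15, for myeloid and T cells, was chosen after the cell numbers were seen. The sums entered edgeR 4.0.16 under R 4.3.3 (filterByExpr filter, TMM factors, quasi-likelihood fit and test). Library was a blocking factor because a library's sums share animals and run. Deviations of same-library sums correlated by 0.163 to 0.346 between Itih5+ and Clca3a1+ LEC and by -0.002 to 0.149 between LEC and the other tested classes. Standard errors were derived from the fold change and the F statistic and are approximate. edgeR shares information on spread between genes, so very small p-values do not rest on 3 libraries alone. On simulated counts, log2 changes of 1 and 2 were recovered in 21.7% and 59.8% of genes for T cells, 35.4% and 75.5% for myeloid cells, 44.7% and 65.2% for BEC and 92.8% and 100% for Itih5+ against Clca3a1+ LEC, with 0 wrong signs.

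Residuals across cells were analytic Pearson residuals (theta 100). Named genes are the 8 highest members in LEC, in each comparison the 3 called members with the largest fold in each direction, the 6 highest and 3 lowest pairs, the 3 largest and smallest folds between Fos-high and Fos-low LEC, the leading genes of each list and the 10 genes most like the summed members, of which some are not reported here; other genes with values were chosen after these were seen. Alternatives were DESeq2 1.42.0, RLE factors, no filter, no block, each library left out, doubled gates, a 10% mitochondrial maximum and thinning to 3000 UMIs. Intervals and floors cover counting error only.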

Additional observations from a re-analysis of the deposited data

How the results depend on the processing

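Between Itih5+ and Clca3a1+ LEC the 23 called members fell to 10 (6 and 4) with no replicate block, the fit without the pairing of the 2 sums of a library, and DESeq2 called 16; leaving out a library gave 21 to 25. The other 124 of 125 alternative values of a comparison's count or level stayed within 1.5 times of a count or 1 SD of a level. Over all settings called members numbered 17 to 24 against BEC, 30 to 32 against epithelial cells, 24 to 30 against fibroblasts, 15 to 24 against myeloid and 25 to 31 against T cells. With no replicate block these were 17, 31, 24, 18 and 30. Of 1445 alternative values of single called members, 1359 kept direction and call, 86 kept direction and lost the call and 0 reversed; the cause was not tested. The median pairwise r was 0.221 to 0.236. All 32 members stayed higher in Fos-high LEC under each setting run, with a median fold of 6.61 to 10.2. Doubled gates were not run for myeloid cells or for Itih5+ against Clca3a1+ LEC, mural and plasma cells had 1 fit only, and with the minimum of 20 cells myeloid and T cells had no test.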

Other observations

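Outside the 3 gene lists, the genes with the largest folds between Fos-high and Fos-low LEC included secreted and surface proteins. These genes were chosen after their values were seen. The neutrophil chemokines Cxcl2 and Cxcl1 were 18-fold and 15.5-fold higher in Fos-high LEC (Cxcl2 at 53.2, 27.9 and 30.3 CPM against 645, 550 and 809 CPM). P-selectin (Selp) was 11.1-fold, Zc3h12a, an RNase that cuts cytokine mRNA, 10.7-fold and Icam1 9.09-fold higher. Among the genes with the lowest folds were Mki67, Top2a and Cenpf, each known from dividing cells, with Mki67 at 44.3, 34 and 30.2 CPM in Fos-low and 4.86, 6.17 and 3.55 CPM in Fos-high LEC, Top2a at 35.3, 13.6 and 28.3 against 0.324, 2.82 and 1.00 CPM, and Cenpf at 59.8, 36.6 and 31.6 against 1.62, 1.52 and 1.47 CPM. Of 6196 genes, 107 were at least 1.5-fold lower in all 3 libraries.

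Correlation among members was also taken in other classes with at least 50 cells in a library, a description added after the data were seen, with no value over all genes beside it. The median r was 0.387, 0.300 and 0.318 in fibroblasts of libraries 1, 2 and 3, 0.176, 0.164 and 0.141 in epithelial cells, and 0.370 in the 77 mural cells of library 2. It was 0.110 in the 74 BEC and 0.048 in the 53 T cells of library 2, and 0.103 and 0.168 in myeloid cells of libraries 2 and 3. The medians cover 465 pairs in T cells and 496 in myeloid cells, against 528 in the other classes. Classes also differed in depth and cell number, and the part of these in the medians was not tested. Fos and Fosb had r = 0.824, 0.729 and 0.739 in fibroblasts, against -0.072 in T cells, where both genes are sparse.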
